A study of Mus musculus with 18 samples.

Results

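The genes described here encode the receptors and ligands of cell adhesion to the extracellular matrix: integrin subunits, laminin chains, fibronectin and their basement membrane partners. A list of 37 mouse gene symbols defined them, and each gene was represented by its brightest probe set, by mean over 18 arrays, among those annotated to exactly 1 symbol. Such a probe set was found for 36 of the 37, since none was annotated to Itga11 alone, out of 18193 genes so represented on the array. A filter on dim probe sets left 31 of the 36 in the test, out of 14273 genes tested in all.

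RNA came from embryoid bodies, the floating aggregates in which mouse embryonic stem cells begin to differentiate, made from a 129P2 line whose doxycycline-inducible cassette encodes Flag-tagged Msgn1, a transcription factor of presomitic mesoderm. In the induced groups 1 µg/ml doxycycline was added on day 2 and the bodies were collected 12, 24 and 48 h later. The uninduced groups carried the same cassette, received no doxycycline and were collected at the same times. Each of the 6 groups had 3 arrays, labelled as biological replicates. The labels do not say whether these were separate cultures, so p-values measure only the spread between these arrays. The stem cells had been kept on mitomycin-treated mouse fibroblasts before differentiation, no sample used here combined doxycycline with a cell line lacking the cassette, and the labels name a single line.

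Integrins are heterodimers of an alpha and a beta subunit that tie the matrix outside the cell to actin inside it, and the pairing sets which ligand is bound. Laminins are heterotrimers of an alpha, a beta and a gamma chain, polymerise on the cell surface and are linked to the type IV collagen network by nidogens and perlecan. Fibronectin is assembled into fibrils by the integrins that bind it, and in the mouse embryo it is needed for mesoderm and somite formation. Forming somites are surrounded by a fibronectin-rich matrix.

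Array medians of the deposited linear signal lay between 18.79 and 22.15, and replicate arrays correlated at 0.990 to 0.994 on the log2 scale. Msgn1 itself lay between 44.5 and 76.8 in the 9 induced arrays and between 4.69 and 25.2 in the 9 uninduced arrays. The stem cell marker Pou5f1 was present as the tissue label implies, at group mean signals of 3149 or more. Of 8 presomitic and streak markers 2, 8 and 6 rose with induction at 12, 24 and 48 h. These were 25%, 100% and 75% of the list, against 0.897%, 2.91% and 6.86% of all genes tested. Not all were bright without induction: Tbx6 had uninduced mean signals of 11.7 at 12 h and 13.0 at 24 h. Summed signal of 6 stem cell and epiblast markers at 48 h was 6618 to 8324 in induced and 11981 to 12742 in uninduced arrays. These are bulk RNA samples, in which fewer cells of a type and less RNA per cell cannot be told apart. Each change below is the group-mean difference on the log2(signal + 32) scale ± the standard error of the limma fit, with folds of that same quantity, which understate the change of low signals, and a gene was called when its p adjusted over all 14273 genes was under 0.05.

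With induction, both matrix ligands and integrin subunits were among the adhesion genes that rose. Lama1 rose at all 3 times, Fn1 from 24 h, and Nid1 and Sparc at 48 h. Among integrins Itga8 rose at 24 and 48 h and Itga9 and Itgb5 at 48 h, while Itga6 fell at 48 h. At 12 h 1 of the 31 tested genes rose (0.897% of all genes tested) and none fell (0.182% of all genes tested), and at limma's unadjusted p under 0.05 there were 3 higher and 0 lower (9.68% and 0%, against 6.42% and 4.83% of all genes). At 24 h 3 rose (2.91% of all genes) and none fell (0.995% of all genes), against 3.91% of all genes in either direction, with 7 higher and 0 lower at an unadjusted p under 0.05 (22.6% and 0%, against 9.3% and 5.94% of all genes). At 48 h 7 rose (6.86% of all genes) and 1 fell (5.56% of all genes), which is 22.6% and 3.23% of the genes described here. At an unadjusted p under 0.05 there were then 11 higher and 3 lower (35.5% and 9.68%, against 13.1% and 10.9% of all genes). The 11 include Lama2, which passed the filter through the induced 48 h group alone and so is no support for a rise. The median change of the 31 genes was 0.07, 0.09 and 0.10 at the 3 times, against 0.00, 0.01 and 0.01 over all genes tested.

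**Figure D1:**
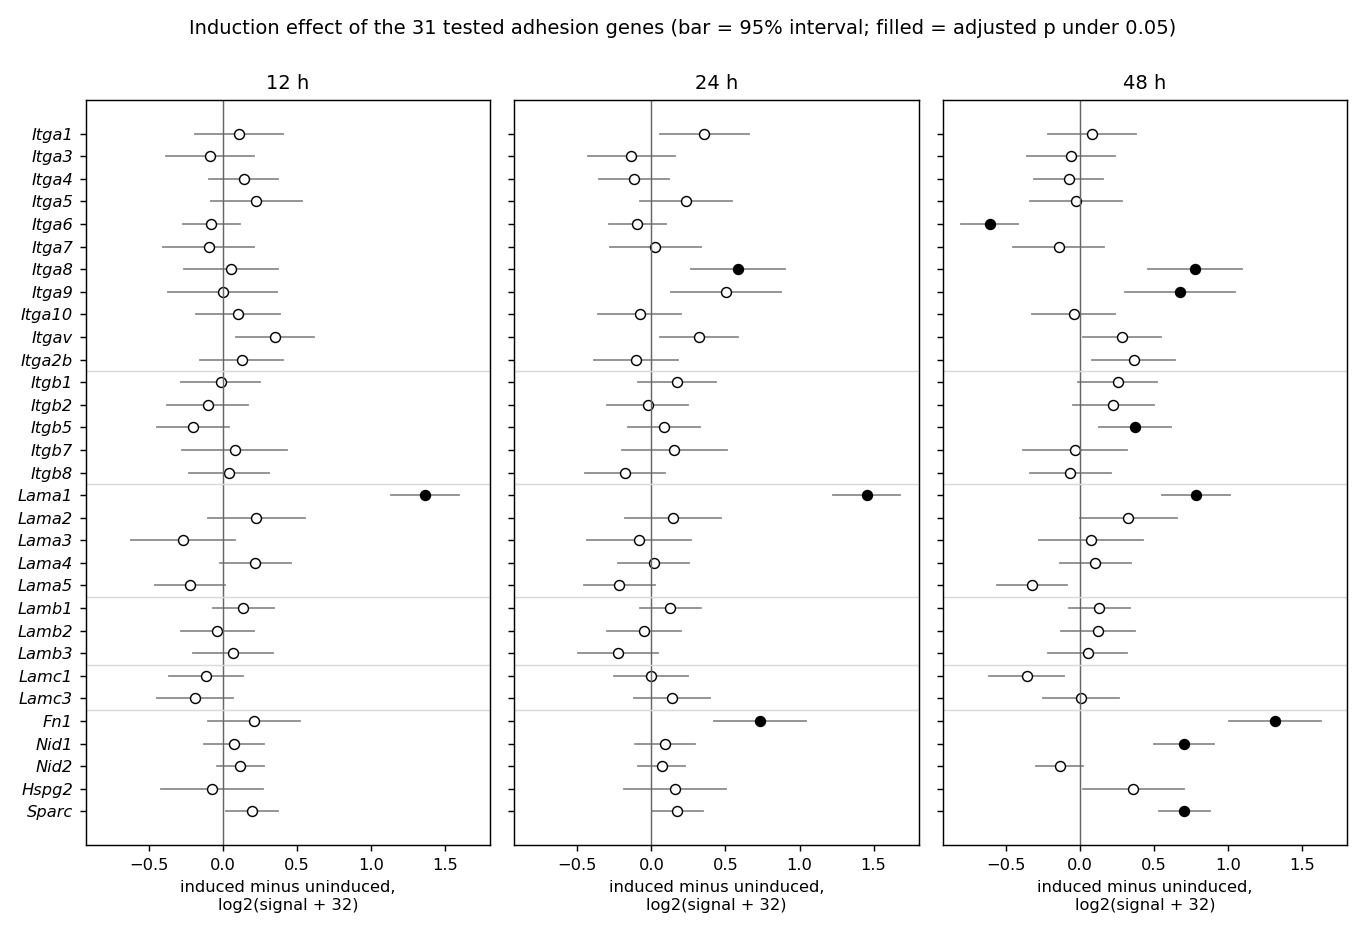
Induced minus uninduced change, in log2(signal + 32), of the 31 tested adhesion genes at 12, 24 and 48 h, grouped by role from integrin alpha subunits at the top to other matrix genes at the bottom. Points are differences of group means of 3 arrays each, bars are 95% intervals of the limma fit, and filled points passed at an adjusted p under 0.05. Lama1 is the filled point at 12 h, and the filled points at 48 h are 7 to the right of zero and Itga6 to the left.

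Lama1, the alpha chain of the laminin found in the earliest embryonic basement membranes, changed first. Its signal at 12 h was 93.7, 94.0 and 97.5 in induced arrays, against 19.9, 18.1 and 13.9 in uninduced arrays. At 24 h it was 119.8, 107 and 107 in induced and 18.4, 25.4 and 17.4 in uninduced arrays. At 48 h it was 62.5, 48.5 and 69.2 in induced and 22.9, 26.7 and 15.2 in uninduced arrays. Every induced array lay above every uninduced array at each time, and the uninduced signals all lay below the offset of 32. The changes were 1.37 ± 0.110 (2.58-fold, adjusted p = 6.46e-08), 1.45 ± 0.110 (2.74-fold) and 0.78 ± 0.110 (1.72-fold, adjusted p = 2.36e-05). Lama1 has only 1 probe set on the array.

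No other laminin chain was called with induction at any time. Lama5, the alpha chain of the laminin of most later basement membranes, stood at -0.33 ± 0.114 at 48 h (adjusted p = 0.0676), with induced signals of 168, 219.9 and 164 and uninduced signals of 238, 241 and 232. All 3 induced arrays were below the uninduced ones, but the second kept probe set of Lama5 gave a change of 0.00. Lamc1, the gamma chain shared by most laminins, stood at -0.36 ± 0.121 at 48 h (adjusted p = 0.0568), with induced signals of 127, 144 and 105 and uninduced signals of 198, 172 and 140.1, which overlap. Its second probe set gave 0.01. Lamb1, the beta chain that pairs with both, had 95% intervals from -0.07 to 0.34 at 12 h, -0.08 to 0.33 at 24 h and -0.07 to 0.34 at 48 h. Lama2, Lama3, Lama4, Lamb2, Lamb3 and Lamc3 were dim, with no array above 53.1. Of these, Lama2 passed the filter in the induced 48 h group alone and Lama4, Lamb3 and Lamc3 in 3 groups each, so their measured changes rest on signals close to the filter of 13.3.

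Fn1, fibronectin, had the largest change of these genes at 48 h. Its signals then were 4554, 3752 and 3685 in induced arrays, against 1667, 2023 and 1161 in uninduced arrays. At 24 h they were 1635, 1719 and 2397 in induced and 1080.0, 1019 and 1285 in uninduced arrays. At 12 h they were 1737, 1884 and 1766 in induced and 1634, 1402 and 1617 in uninduced arrays. The groups did not overlap at any of these times, and the distance between them widened. The changes were 0.21 ± 0.150 at 12 h, which was not called, 0.73 ± 0.150 at 24 h (1.66-fold, adjusted p = 0.00501) and 1.32 ± 0.150 at 48 h (2.49-fold, adjusted p = 1.51e-06). At 48 h both probe sets of Fn1 passed when all 30497 kept probe sets were tested, and at 24 h 1 of 2 did.

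Nid1, the nidogen that bridges laminin and type IV collagen, had signals of 388, 359 and 323 in induced arrays at 48 h, against 221, 231 and 172 in uninduced arrays. At 12 h it had 408, 419 and 361 in induced and 356, 373 and 394 in uninduced arrays, and at 24 h 325, 322 and 328 in induced and 299.8, 276 and 339 in uninduced arrays. The groups overlapped at 12 and 24 h and separated at 48 h, when the uninduced arrays were the lowest of the study and the induced ones stayed in the range of the earlier times. The change at 48 h was 0.70 ± 0.0977 (1.63-fold, adjusted p = 2.06e-05). The second nidogen gene, Nid2, was not called at any time, and its change at 48 h was -0.14 (95% interval -0.30 to 0.02). Hspg2, perlecan, the heparan sulfate proteoglycan of basement membranes, stood at 0.36 ± 0.166 at 48 h (adjusted p = 0.182). Its second kept probe set gave -0.14 and was not called.

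Sparc, a secreted collagen-binding glycoprotein of basement membranes and mesenchyme, had signals of 1181, 1064 and 1194 in induced arrays at 48 h, against 683, 701 and 687 in uninduced arrays. At 12 h it had 657, 596 and 598 in induced and 559, 496 and 546 in uninduced arrays, and at 24 h 632, 717 and 688 in induced and 682, 593 and 526 in uninduced arrays. The groups overlapped at 24 h and were far apart at 48 h, where the change was 0.70 ± 0.0836 (1.63-fold, adjusted p = 2.71e-06), and at 12 h the change was 0.20 and not called. For Sparc 2 of 3 probe sets passed at 48 h, and for Nid1 1 of 2 did. Vtn, vitronectin, was below the filter in every group, with signals from 1.37 to 16.3.

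**Figure D2:**
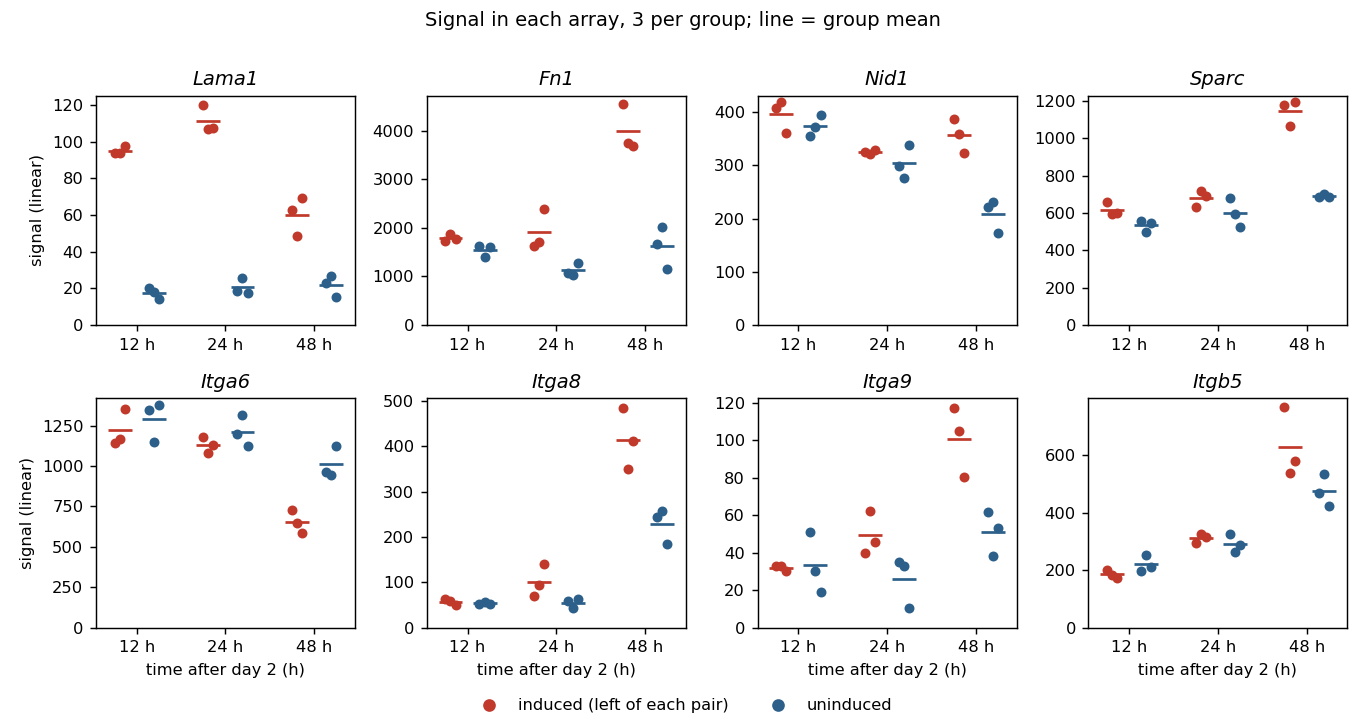
Linear signal in each of the 18 arrays for 4 matrix genes (upper row) and 4 integrin genes (lower row), with time in h along the horizontal axis, induced arrays left of uninduced ones and a line at each group mean of 3 arrays. Induced Lama1 arrays are separate from uninduced ones at every time, and induced Fn1 arrays at 48 h lie between 3685 and 4554.

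Among integrin alpha subunits, Itga8 changed most over the study. This subunit pairs with Itgb1, binds fibronectin and other RGD-containing ligands, and is known in mouse for its role in kidney development. At 24 h its signals were 70.2, 93.9 and 140.0 in induced arrays, against 57.7, 44.4 and 63.4 in uninduced arrays. At 48 h they were 483, 349 and 411 in induced and 245, 256 and 184 in uninduced arrays. At 12 h the groups overlapped, with 49.98 to 63.0 in induced and 52.5 to 56.0 in uninduced arrays, and they were separate later. The change was 0.05 ± 0.153 at 12 h, 0.59 ± 0.153 at 24 h (adjusted p = 0.0322) and 0.78 ± 0.153 at 48 h (1.71-fold, adjusted p = 0.00108). Both of its probe sets passed at 48 h and neither did at 24 h. The second had a mean signal over all arrays of 8.77, below the filter of 13.3. Its change at 48 h was 0.39, with a limma adjusted p that rounds to 0.05. It was kept only through its higher groups, and so its pass is weak support for the rise. The call at 24 h ended, at adjusted p up to 0.175, without any 1 of uninduced 24 h replicates 1 and 2 and induced 24 h replicates 2 and 3.

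Itga9, which pairs with Itgb1 and binds tenascin C among other ligands, rose at 48 h. At 48 h it had 117, 105 and 80.3 in induced arrays, against 61.9, 38.2 and 53.1 in uninduced arrays. At 24 h it had 39.8, 62.0 and 45.7 in induced and 35.1, 32.8 and 10.3 in uninduced arrays, and at 12 h 32.9, 32.8 and 30.0 in induced and 51.0, 30.0 and 18.8 in uninduced arrays. The arrays separated at 24 and 48 h and not at 12 h. The change was 0.50 ± 0.178 at 24 h, not called (adjusted p = 0.136), and 0.68 ± 0.178 at 48 h (1.60-fold, adjusted p = 0.0130). Of its 3 kept probe sets 1 passed at 48 h, and the call ended at adjusted p up to 0.0777 without uninduced 48 h replicate 2 or induced 48 h replicate 1.

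Itga6, a laminin-binding subunit, was the only one of the 31 that fell with induction at any of the 3 times. At 48 h its signals were 729, 645 and 585 in induced arrays, against 963, 946 and 1126 in uninduced arrays. At 24 h they were 1182, 1081 and 1130.2 in induced and 1195, 1318 and 1125 in uninduced arrays, and at 12 h 1139.9, 1168 and 1352 in induced and 1346, 1147 and 1378 in uninduced arrays. The groups overlapped at the first 2 times and separated at 48 h, with a change of -0.61 ± 0.0929 (adjusted p = 6.66e-05). Both probe sets of Itga6 passed, at -0.61 and -0.58. The summed signal of the stem cell and epiblast markers was lower in the same induced 48 h arrays, and its part in the fall of Itga6 was not tested.

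The remaining alpha subunits were not called with induction. Itgav, which binds fibronectin and vitronectin with several beta partners, was higher by 0.35 ± 0.127, 0.32 ± 0.127 and 0.28 ± 0.127 at 12, 24 and 48 h (adjusted p = 0.246, 0.194 and 0.172). Its induced arrays lay above all uninduced ones at 12 h (867 to 995, against 664 to 788) and 48 h (809.7 to 899.9, against 604 to 734), while at 24 h they overlapped (703 to 1076, against 610.0 to 850.3). The second kept probe set of Itgav, at a mean signal of 20.5, went the other way, at -0.11, -0.14 and -0.26, and was not called. With replicates of the same number as a block in the limma fit, Itgav passed at 12, 24 and 48 h (adjusted p = 0.0201, 0.0159 and 0.0141). Replicate numbers did not pair the arrays at 12 and 48 h, and at 24 h they set only replicate 3 apart from the others. Itga5, the fibronectin receptor subunit required for posterior mesoderm in mouse, had changes of 0.23, 0.23 and -0.03, with 95% intervals from -0.08 to 0.54, -0.08 to 0.54 and -0.34 to 0.28. Itga4, which binds fibronectin and Vcam1, lay between 9.85 and 27.2 in all arrays, and its changes ran from -0.12 to 0.14. Itga3, a laminin-binding subunit of epithelia, was at -0.09, -0.14 and -0.06, and Itga2b, the platelet subunit, reached 0.36 ± 0.135 at 48 h (adjusted p = 0.0900). The collagen-binding Itga1 reached 0.36 ± 0.144 at 24 h (adjusted p = 0.216). Of the other collagen-binding subunits, Itga2 was below the filter in every group and Itga11 had no probe set annotated to it alone. Itga10, the last of them, and Itga7 passed the filter in 2 groups each with no array above 20.4.

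Of the beta subunits, Itgb5, which pairs with Itgav and binds vitronectin, was called at 48 h. Its signals were 768, 538 and 579 in induced arrays, against 469, 534 and 422 in uninduced arrays. At 12 h they were 200.4, 184 and 173 in induced and 196, 253 and 210.2 in uninduced arrays, and at 24 h 295, 325 and 315 in induced and 326, 264 and 287 in uninduced arrays. At 48 h the lowest induced array lay just above the highest uninduced one, and the groups overlapped earlier. The change at 48 h was 0.37 ± 0.116 (1.29-fold, adjusted p = 0.0384), and none of its 4 probe sets passed when all probe sets were tested. Its other 3 probe sets gave changes of 0.15, 0.07 and 0.14, and their mean with the brightest gave 0.18 (adjusted p = 0.203). The call ended in 7 of 15 alternatives, at adjusted p up to 0.265: without uninduced 48 h replicate 1 or 3 or induced 48 h replicate 1, with averaged probe sets, without the filter, without the variance trend, and with the arrays of the comparison alone.

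Itgb1, the partner of most alpha subunits described here, was at -0.02, 0.17 and 0.25 with 95% intervals from -0.28 to 0.25, -0.09 to 0.44 and -0.01 to 0.52. Itgb8, a partner of Itgav that takes part in activation of latent TGF-beta, had changes from -0.18 to 0.04. Itgb2 of leukocytes and Itgb7 of lymphocytes passed the filter in 2 groups each, with no array above 28.6. Itgb3, Itgb4 and Itgb6 did not reach it in any group and had no array above 18.7.

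Ligands and their receptor subunits can be set beside each other. For laminin, Lama1 rose at every time while its receptor subunit Itga6 fell at 48 h, Itga3 and Itgb1 were not called, Itga7 was near the filter and Itgb4 below it. Dag1, dystroglycan, the non-integrin laminin receptor, had changes of 0.03, 0.18 and 0.01, none of them called. For fibronectin, Fn1 and the receptor subunit Itga8 were both called higher at 24 and 48 h. The 24 h call of Itga8 was lost in 8 of 15 alternatives, and Itga8 also rose from 12 h to 48 h without induction, by 1.59. Itga5, Itga4, Itgav and Itgb1 were not called with induction, and Itgb3, Itgb6 and Itgb7 were dim. For vitronectin the ligand was below the filter while the receptor subunits Itgav and Itgb5 had signals of 173 or more in every array. Of its other receptor subunits, Itgb3 was below the filter in every group and Itgb8 lay between 16.1 and 50.4. For tenascin C, a ligand of Itga9, Tnc was higher in induced arrays at 48 h by 0.63 ± 0.155, as was that subunit. Over time Tnc fell in both, with mean signals at 12, 24 and 48 h of 235, 165 and 133 in induced and 236, 182 and 75.7 in uninduced arrays, while mean signals of Itga9 were 31.9, 49.1 and 101 in induced and 33.3, 26.0 and 51.1 in uninduced arrays. Both are contrasts of the same arrays, and no test of a link between a ligand and a receptor was made.

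Of the 7 genes with a higher call at 48 h, 4 with a change of at least 0.5 have a promoter in the RefSeq table of build GRCm38.p6. Lama1 and Fn1 also changed by at least 0.5 but have no entry there. The 250 bases before each start are shown because these genes were called higher in the same comparison. Msgn1 is a basic helix-loop-helix factor, a class that binds E-boxes, so capitals mark CANNTG, a motif that reads the same on both strands. In this window Itga8 held 2 such sites, Itga9 3, Nid1 0 and Sparc 2.
Itga8 promoter, chr2:12301945-12302194, minus strand: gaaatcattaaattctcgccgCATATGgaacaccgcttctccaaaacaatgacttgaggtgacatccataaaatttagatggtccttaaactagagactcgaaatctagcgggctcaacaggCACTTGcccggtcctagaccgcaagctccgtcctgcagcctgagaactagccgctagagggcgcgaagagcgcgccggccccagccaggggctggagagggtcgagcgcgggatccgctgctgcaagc
Itga9 promoter, chr9:118711442-118711691, plus strand: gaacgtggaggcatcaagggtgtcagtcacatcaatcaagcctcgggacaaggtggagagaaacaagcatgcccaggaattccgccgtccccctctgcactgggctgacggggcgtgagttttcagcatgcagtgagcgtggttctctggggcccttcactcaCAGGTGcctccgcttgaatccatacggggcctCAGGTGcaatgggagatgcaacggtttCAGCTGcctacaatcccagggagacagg
Nid1 promoter, chr13:13437352-13437601, plus strand: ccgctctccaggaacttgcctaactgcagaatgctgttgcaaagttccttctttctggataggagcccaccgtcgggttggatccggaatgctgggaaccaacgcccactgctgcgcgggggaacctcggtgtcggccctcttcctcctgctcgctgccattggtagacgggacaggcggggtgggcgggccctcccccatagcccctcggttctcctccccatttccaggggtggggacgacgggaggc
Sparc promoter, chr11:55420081-55420330, minus strand: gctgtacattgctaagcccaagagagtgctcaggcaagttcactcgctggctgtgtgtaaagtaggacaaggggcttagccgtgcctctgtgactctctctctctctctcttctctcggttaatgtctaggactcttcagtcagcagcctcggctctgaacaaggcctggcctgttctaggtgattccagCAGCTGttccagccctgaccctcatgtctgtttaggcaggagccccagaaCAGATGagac
The motif is common: 66.2% of 32851 promoter windows of this length in the table hold at least 1, against 19 of the 25 adhesion genes with an entry, and 12 of the 16 tested adhesion genes with an entry that were not called at any time. The letters describe the window and are not evidence of binding.

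Without induction the adhesion genes also changed as the embryoid bodies aged. From 12 h to 48 h in uninduced arrays 7 of the 31 rose and 5 fell, 22.6% and 16.1%, against 18.6% and 15% of all genes tested (33.6% in either direction), so these shares are close to those of the array. Itga8 rose by 1.59 ± 0.153 (3.01-fold, adjusted p = 3.85e-08) and Itgb5 by 1.01 ± 0.116 (2.02-fold). Smaller rises were those of Itga1 (0.56), Itgb1 (0.54), Itgb8 (0.52), Sparc (0.35) and Lamb1 (0.31). The falls were those of Nid1 (-0.77 ± 0.0977), Lama3 (-0.56), Nid2 (-0.53), Itga6 (-0.34) and Lamc1 (-0.33). The second kept probe set of Nid1 gave -0.28 and was not called. Lama3 passed the filter in every group but uninduced 48 h, with uninduced mean signals of 32.5 at 12 h and 11.7 at 48 h. Its call thus rests on signals near the filter and is weak support for a fall. Fn1 was at 0.03 ± 0.150 for its brightest probe set, while the mean over its 2 probe sets gave 0.29 and was called. Without uninduced 48 h replicate 2, the falls of Lama3 and Lamc1 were no longer called, which left 3. The rise of Lamb1 was lost without uninduced 12 h replicate 3 or uninduced 48 h replicate 1 or 2, and the fall of Lamc1 also without any single uninduced 12 h array or uninduced 48 h replicate 3.

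In induced arrays 10 of the 31 rose and 4 fell from 12 h to 48 h, 32.3% and 12.9%, against 22.8% and 18.9% of all genes tested (41.7% in either direction). Itga8 rose by 2.31 ± 0.153 (4.96-fold), Itgb5 by 1.58 ± 0.116 (3.00-fold), Fn1 by 1.13 ± 0.150 (2.20-fold), Itga9 by 1.05 ± 0.178 (2.06-fold), Sparc by 0.86 ± 0.0836 and Itgb1 by 0.81 ± 0.128. Itga6 fell by 0.87, Nid2 by 0.79, Lamc1 by 0.58 and Lama1 by 0.47. The second probe set of Lamc1 gave 0.22 in this course, and with its probe sets averaged the change was -0.18 and not called (adjusted p = 0.131). Itgb8 (0.41), Lamc3 (0.44), Itga1 (0.53) and Lamb1 (0.30) rose less. Lamc3 passed the filter through induced 24 h and both 48 h groups, with induced mean signals of 6.41 at 12 h and 19.8 at 48 h. It thus entered the test through groups where it is high, and its call is no support for a rise. The call of Itgb8 was lost without induced 12 h replicate 1 or induced 48 h replicate 3, and that of Lamb1 without induced 12 h replicate 2 or 3 or induced 48 h replicate 1. Nid1 was not called in this course, at -0.14 (95% interval -0.34 to 0.06). Of the genes called in the uninduced course, Nid1 and Lama3 were the ones without a call here, and whether their courses differ is given next for Nid1.

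**Figure D3:**
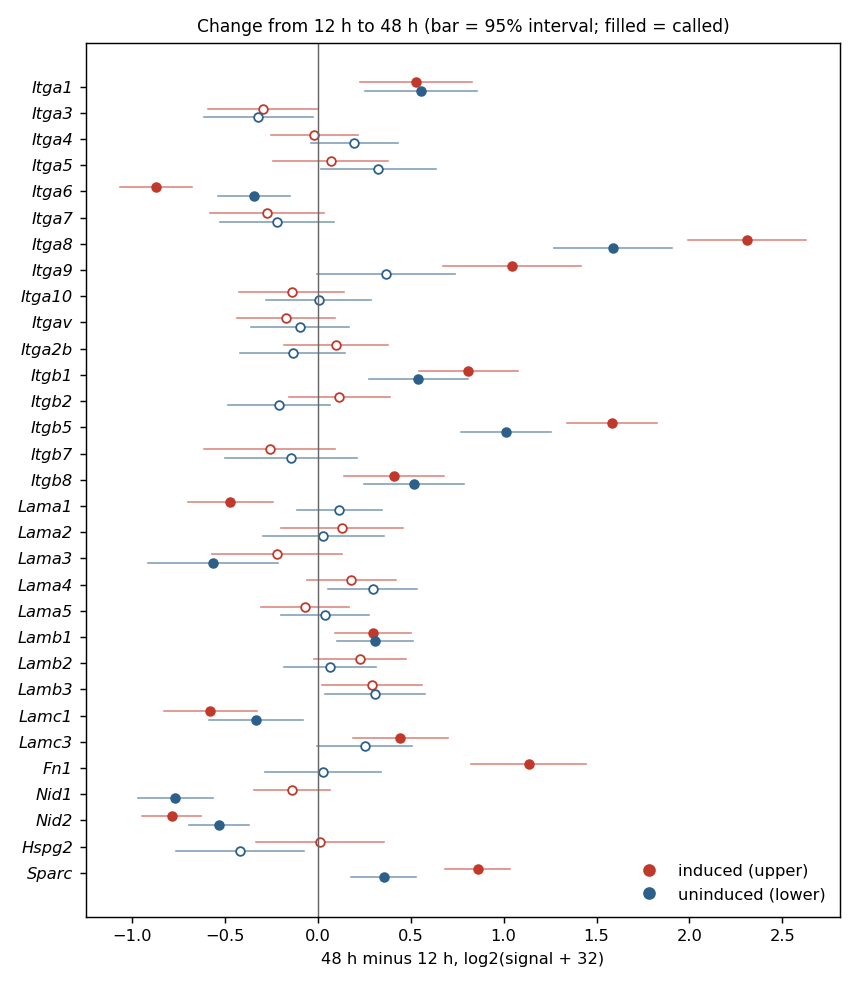
Change from 12 h to 48 h in log2(signal + 32) for the 31 tested adhesion genes, in induced (upper point of each pair) and uninduced (lower point) embryoid bodies. Bars are 95% intervals and filled points passed at an adjusted p under 0.05. Itga8 and Itgb5 lie farthest to the right in both, and Fn1 is filled in induced embryoid bodies alone.

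The induction effect itself differed between 12 h and 48 h for 6 of the 31, higher at 48 h for 4 (2.84% of all genes tested) and lower for 2 (2.63% of all genes), with 5.47% of all genes called in either direction. The effect on Fn1 was larger at 48 h by 1.11 ± 0.212 (adjusted p = 0.00208), on Nid1 by 0.63 ± 0.138 (adjusted p = 0.00671), on Itgb5 by 0.57 ± 0.165 (adjusted p = 0.0427) and on Sparc by 0.51 ± 0.118 (adjusted p = 0.0108). It was smaller on Lama1, by -0.59 ± 0.155 (adjusted p = 0.0266), and more negative on Itga6, by -0.53 ± 0.131 (adjusted p = 0.0171). Itga8 missed the threshold at 0.72 ± 0.216 (adjusted p = 0.0543), as did Itga9 at 0.68 ± 0.252 (adjusted p = 0.138). This contrast shares its arrays with the effects at 12 h and 48 h and with both courses, so it is no separate evidence of them.

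**Figure D4:**
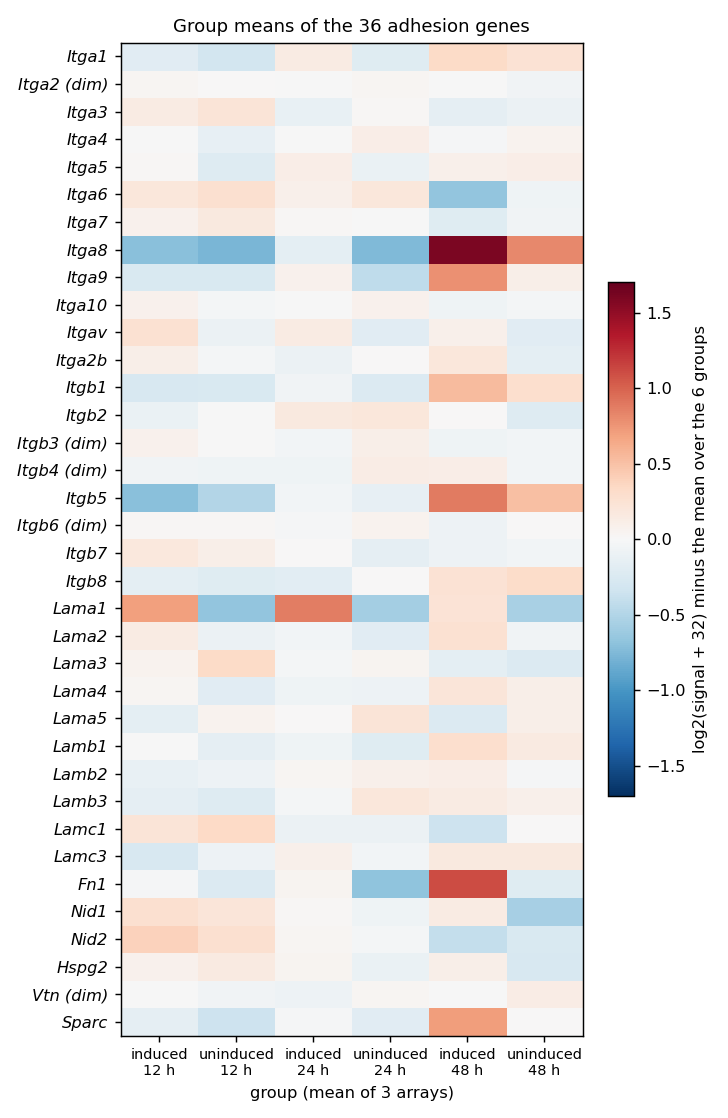
Group means of log2(signal + 32) for all 36 adhesion genes with a probe set, each minus that gene's mean over the 6 groups, with induced groups left of uninduced ones at 12, 24 and 48 h. Red is above and blue below the gene's own mean, colours do not compare levels between genes, and genes marked dim did not pass the filter. Itga8 reaches 1.60 in the induced 48 h group.

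Genes that carry integrin signals to actin were described from a further list. Of 28 tested adaptor and focal adhesion genes 1, 4 and 8 rose at 12, 24 and 48 h and 0, 1 and 1 fell, with median changes of 0.04, 0.13 and 0.17. The shares that rose were 3.57%, 14.3% and 28.6%, against 0.897%, 2.91% and 6.86% of all genes tested. The shares that fell were 0%, 3.57% and 3.57%, against 0.182%, 0.995% and 5.56% of all genes. At 12 h the rise was that of Actn1, an actin crosslinker (0.45 ± 0.0766). At 48 h the largest were those of Tgfb1i1, the paxillin relative Hic-5 (1.05 ± 0.117), Parvb, a parvin that binds integrin-linked kinase (1.01 ± 0.105), and the kindlins Fermt3 (0.67 ± 0.119) and Fermt2 (0.43 ± 0.0748). Group mean signals of Parvb at 48 h were 289 in induced and 127 in uninduced embryoid bodies, and those of Tgfb1i1 were 132 and 47.4. Tns3, a tensin, fell at 24 h (-0.44 ± 0.0962) and at 48 h (-0.30 ± 0.0962).

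Other basement membrane and integrin ligand genes were described from a list of their own. Of 26 tested, 0, 4 and 9 rose at 12, 24 and 48 h and 0, 0 and 2 fell, with median changes of 0.03, 0.14 and 0.11, and at 12 h 1 had an unadjusted limma p under 0.05. The shares that rose were 0%, 15.4% and 34.6% and those that fell 0%, 0% and 7.69%, to be read against the shares of all genes just given. At 48 h Fbn2, a fibrillin of embryonic microfibrils, rose by 1.55 ± 0.183, the fibulin gene Fbln2 by 1.23 ± 0.151, and the type IV collagen genes Col4a1 and Col4a2 by 1.08 ± 0.110 and 1.04 ± 0.130. Col4a1 and Col4a2 had group mean signals of 764 and 286 in induced and 347 and 123 in uninduced embryoid bodies. Frem2, an epithelial basement membrane protein, fell by 0.92 and Ntn1, netrin, by 0.69.

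Markers of other cell types that produce matrix were read beside these results, and their counts stand against the same shares of all genes. Of 11 tested feeder fibroblast markers 1, 3 and 4 rose at 12, 24 and 48 h and none fell, with 6, 4 and 4 higher and 0, 1 and 1 lower at an unadjusted limma p under 0.05. Their summed signal was 2628 to 2929.7 in induced and 1999.9 to 2131 in uninduced arrays at 12 h, and 3027.5 to 3425 in induced against 1840.1 to 1990.3 in uninduced arrays at 48 h. Fstl1 had the highest mean signal of these markers in every group and so weighs most in the sum. It was at 1024 in induced and 533 in uninduced arrays at 12 h and 1268 and 639.7 at 48 h. Tagln was at 878 in induced and 519 in uninduced arrays at 48 h. The type I collagen gene Col1a2 rose at 24 h, at 229.7 in induced and 144 in uninduced arrays, and at 48 h, at 225 and 112, and Acta2, smooth muscle actin, rose at 48 h, at 367 in induced and 206 in uninduced arrays. The other type I collagen gene, Col1a1, had group means from 18.2 to 26.9 and Lum from 11.6 to 29.4, and Dcn was at 35.4 in induced and 56.4 in uninduced arrays at 48 h. At 48 h Thy1 was at 139 in induced and 128 in uninduced arrays, Col3a1 at 97.4 and 90.0, and Postn at 93.2 and 93.6. The 12 h means were higher in induced than uninduced arrays for Thy1 (189 and 143), Col3a1 (145 and 115) and Dcn (92.8 and 70.1). The same held for Lum (29.4 and 19.6), Col1a2 (208 and 143), Tagln (379 and 355) and Acta2 (390 and 387). Lower in induced arrays at 12 h were Postn (185 and 195), Col1a1 (20.7 and 26.9) and S100a4 (79.4 and 87.7). S100a4 was at 47.95 in induced and 70.2 in uninduced arrays at 24 h. None of these markers was at 0, and the part of feeder cells in the rises of Lama1, Fn1, Nid1 and Sparc was not tested.

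Of 12 tested extraembryonic endoderm markers, a cell type rich in laminin, 0, 3 and 4 rose and 0, 0 and 2 fell at the 3 times, with 0 at an unadjusted limma p under 0.05 at 12 h. Their summed signal at 12 h was 401 to 489 in induced and 398 to 462 in uninduced arrays. At 48 h it was 1666 to 1909.6 in induced and 2048 to 2381 in uninduced arrays. Afp (1.78 to 5.76), Ttr (1.08 to 12.0), Apoa1 (2.06 to 13.8) and Hnf4a (5.02 to 14.0) had low group means throughout. The markers that rose at 48 h were Sox7 (119 in induced and 24.5 in uninduced arrays), Gata4 (124 and 50.4), Gata6 (475 and 296) and Krt19 (359 and 211), and those that fell were Foxa2 (168 and 772) and Sox17 (317 and 597). As the called genes of this list went both ways and others were low, their sum is not a measure of extraembryonic endoderm alone. The part of this cell type in the changes of the adhesion genes was not tested. Of 10 tested endothelial and blood markers 1, 4 and 6 rose and 0 fell, with 0, 0 and 1 lower at an unadjusted limma p under 0.05, and at 48 h their summed signal was 1614.5 to 1789 in induced and 442 to 646 in uninduced arrays. Their part in the differences in Fn1, Nid1 and Sparc at 48 h was not tested.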

How the data were processed

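Signal intensity was measured on 18 single-channel Affymetrix arrays, 3 in each of 6 groups, which the titles give. The amount of total RNA labelled was 100 ng, per the labels' protocols. The deposited intensity values are linear, with 1 value for each of 45101 probe sets; their 2% trimmed mean is 150 on every array, so the authors had scaled each array. GCOS is named in the submitters' processing notes, while the sources used here give neither the signal algorithm nor detection calls.

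Values were transformed to log2(signal + 32) without further normalization. Probe sets were named through the platform annotation, with symbols updated by Entrez identifier (34754 matched), and 64 controls were left out. Probe sets whose mean stayed under 13.3, the 40th percentile of the signals, in all 6 groups were dropped. The brightest kept probe set stood for its gene. Limma 3.58.1 in R 4.3.3 fitted 1 mean per group (12 residual degrees of freedom, eBayes with trend). The 2-sided p-values of all 14273 genes were adjusted after Benjamini and Hochberg. The fit was tested on simulated data.

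The genes, the other lists and the tests were chosen with earlier results of these data known. Values of every array are given for genes called with induction at a change of at least 0.5, or in the uninduced course at a change of at least 1. From each other list up to 4 called genes per comparison are named. The same replicate number was checked as a pairing by correlating deviations from the group means: the pairs of 24 h arrays gave 0.20, 0.14 and 0.44. Induced 24 h replicate 1 with uninduced 24 h replicate 2 also gave 0.20, and induced replicate 2 with uninduced replicate 1 gave 0.11. Unmatched 24 h pairs that include a replicate 3 gave -0.32 to -0.20. The 12 h pairs gave 0.01, 0.072 and -0.067. The 48 h pairs gave -0.13, -0.066 and 0.083. By the limit of 0.1 for every pair, the numbers were treated as pairing arrays at 24 h alone. There they set replicate 3 apart but did not tell replicates 1 and 2 from each other. Alternatives were quantile normalization, other filters and offset, averaged probe sets, other variance models, the arrays of a comparison alone, a replicate block, and leaving out each array. Promoters were read from a RefSeq table of GRCm38.p6. Figures were drawn with matplotlib 3.10.9.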

Additional observations from a re-analysis of the deposited data

Results flagged for a closer look

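For 6 of the 31 tested adhesion genes, limma's test of the difference between the induction effect at 48 h and that at 12 h passed. The difference was 1.11 for Fn1, 0.63 for Nid1, 0.57 for Itgb5 and 0.51 for Sparc, each with a larger effect at 48 h. It was -0.59 for Lama1, whose induced arrays stood highest at 24 h, and -0.53 for Itga6, which fell at 48 h. The result for Itgb5 ended in 13 of 21 alternatives, at adjusted p up to 0.133, that for Lama1 in 7, up to 0.0774, and that for Itga6 in 4, up to 0.0608. Single arrays whose omission ended it were, for Itga6, uninduced 12 h replicate 2, induced 12 h replicate 3 and replicate 3 of both 48 h groups. For Lama1 they were uninduced 12 h replicate 3, induced 12 h replicates 2 and 3, uninduced 48 h replicates 1 and 2 and induced 48 h replicate 2. For Itgb5 they were replicates 2 and 3 of both 12 h groups and replicates 1 and 3 of both 48 h groups. That for Sparc ended in 1, with its probe sets averaged (adjusted p = 0.137), and those for Fn1 and Nid1 in none of the 21. Groups of 3 arrays are too small for a test of single outlying arrays.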

How the results depend on the processing

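Of 44 changes of adhesion genes called over the 6 comparisons, 31 kept their call under all alternatives run and 13 lost it in at least 1; none changed sign. At 12 h the count of genes that rose was 2 instead of 1 with the arrays of the comparison alone and with the replicate block, the addition being Itgav. At 48 h the count that fell was 2 instead of 1 with the filter at the 60th percentile (Lamc1 added) and 3 with the replicate block (Lama5 and Lamc1), under which the count that rose was 8 instead of 7 (Itgav). For the difference of effects the count lower was 1 instead of 2 with the replicate block, which Lama1 missed at adjusted p = 0.0636. With this block the count higher at 24 h, where the numbers were treated as pairing the arrays, was 4 instead of 3, with Itgav added. The block changed no other call at that time. Leaving out single arrays gave 2 to 4 genes higher at 24 h, 5 to 7 higher and 1 to 3 lower at 48 h (2 without uninduced 48 h replicate 3, 3 without induced 48 h replicate 2), and 1 higher at 12 h. It gave 6 to 8 higher and 3 to 7 lower in the uninduced course, 9 to 10 higher and 4 to 5 lower in the induced course, and 3 to 5 higher and 0 to 2 lower for the difference of effects, 0 without induced 12 h replicate 3. The cause of these shifts was not tested. At 24 h the call of Itga8 was also lost with quantile normalization, no filter, averaged probe sets and the arrays of the comparison alone. Signals near the filter, as for Lama2, Itga7 and Itga10, limit what can be measured for those genes.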
